A study of Drosophila melanogaster with 4 samples.

Results

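The X chromosome of Drosophila melanogaster held 765 of the 4370 enriched H3K18ac clusters of replicate 1 (17.5%), 824 of the 4910 of replicate 2 (16.8%) and 1320 of the 7536 of the combined list (17.5%). These clusters were taken by their chromosome name alone, with no filter on length, score or position. A cluster here is a stretch of sequence that the authors listed as enriched in ChIP over input. The X sequence of FlyBase release 5 is 22422827 bp long, which is 18.6% of the length of the 6 major chromosome arms. Of the clusters on those arms alone, X held 17.6%, 16.9% and 17.7% in the 3 lists. Of all sequences, heterochromatic and unplaced ones included, X is 13.3%. All members are regions of 1 chromosome and share their libraries, so they are not replicates of each other.

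The material was whole wild-type embryos of the strain Oregon-R (Oregon-R-modENCODE), aged 14 to 16 h and fixed in 1.8% formaldehyde. The antibody against acetylated lysine 18 of histone H3 came from a lot labelled as new. There were 2 ChIP libraries and 2 input libraries, and the labels tie each input to the ChIP library of the same number. All 4 samples share genotype, age and fixation, so the comparisons below are between replicates and between chromosome arms. Whole embryos mix all cell types and both sexes, and fewer cells carrying the mark cannot be told apart from less of the mark per cell. Read depth is unknown. The labels do not state that the embryos of replicates 1 and 2 were collected separately, so their spread may be technical.

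H3K18ac is placed by the acetyltransferase CBP, called Nejire in flies, and is found at active enhancers and promoters. Broad stretches of such acetylation are known around strongly active genes and groups of enhancers. The fly X differs from the autosomes in that males carry a single X and females a pair. In males the MSL complex binds active X-linked genes, and its enzyme MOF acetylates lysine 16 of histone H4 there, a different residue from the one measured here. The end of the X sequence nearest the centromere grades into repeat-rich heterochromatin.

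Along X, listed clusters lay in islands parted by long stretches without one, and both replicates placed the islands in the same windows. Clusters covered 12.1% of X in replicate 1 (2.72 Mb) and 11.0% in replicate 2 (2.47 Mb), a mean of 11.6% ± 0.788 (SD, n = 2). Over 225 windows of 100 kb, the median covered share, as the mean of both replicates, was 8.55%. The lower and upper quartiles of the windows were 1.55% and 18.6%. The 22 most covered windows, about 10% of them, held 32.2% of the covered bases.

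The 5 most covered windows were spread over the chromosome, and apart from a single value all their covered shares lay between 45.7% and 55.8%. The window X:19200001-19300000 had covered shares of 55.8% and 53.9% in replicates 1 and 2, with 8 and 15 clusters. X:1100001-1200000 was covered to 55.5% and 53.9%, with 11 clusters in each list. These leading windows differed by under 2 percentage points between the replicates, 1.95 and 1.58 points. X:18800001-18900000 was covered to 54.4% and 45.7%, and X:10600001-10700000 to 52.6% and 45.9%. The last of the 5, X:13100001-13200000, reached 50.9% and 39.3%, and so was the exception.

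**Figure D1:**
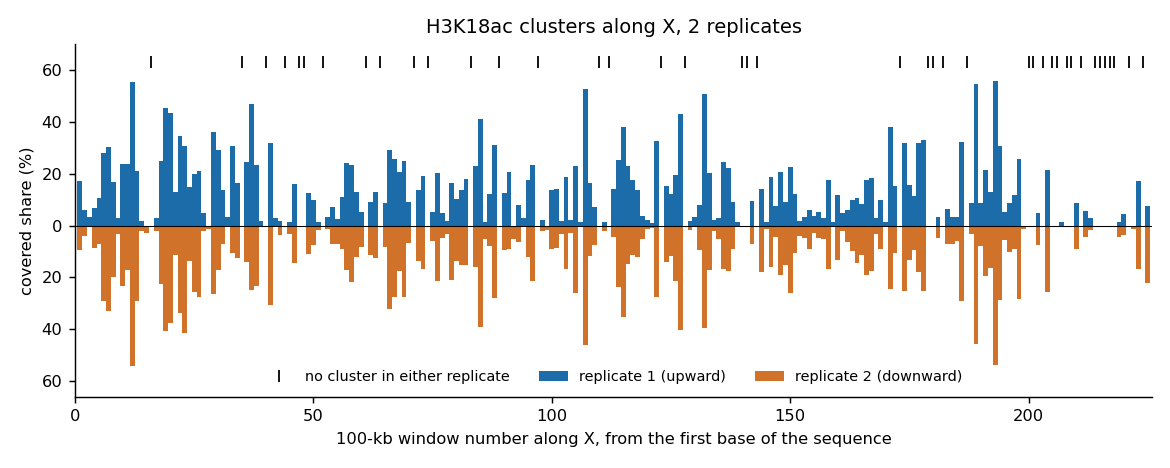
Covered share of each of the 225 windows of 100 kb along X, replicate 1 upward and replicate 2 downward, in percent of the window; black ticks mark the 41 windows with no cluster in either replicate. The same windows stand high in both replicates, and the ticks crowd toward the right end of the sequence, where 14 of the last 25 windows are empty.

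Covered shares of the same window correlated between the replicates (Pearson's r 0.948, Spearman's rho 0.952). This is a description over 225 windows that share 2 libraries. The covered shares differed by 5 percentage points or less in 192 windows, and the median difference was 1.66 points. Both values include the 41 windows with no cluster in either replicate, where the difference is 0. Cluster numbers per window ranked alike too, with a rho of 0.89. The median number was 2 in replicate 1 and 3 in replicate 2, and the highest was 13 and 16.

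A few windows went against this. In X:3600001-3700000 the covered share was 47.0% in replicate 1 and 24.7% in replicate 2. In X:3200001-3300000 it was 30.9% and 10.6%, with 13 clusters against 5. In the short last window of 22827 bp, which begins at 22400001, replicate 2 was higher, with 22.1% against 7.38%. These 3 windows were chosen because they differed most.

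**Figure D2:**
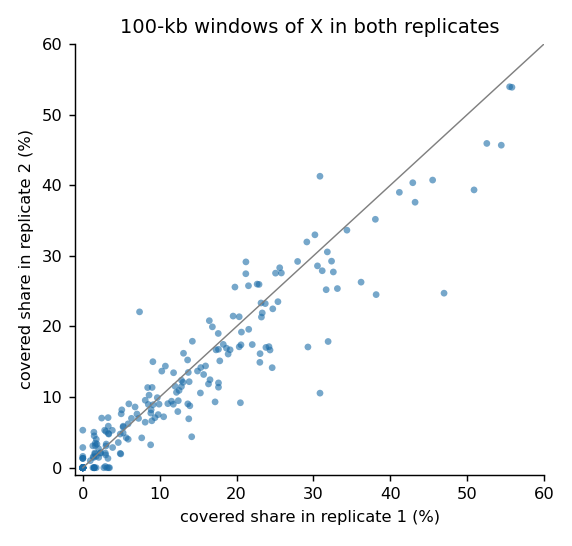
Each point is 1 of the 225 windows of 100 kb of X, with its covered share in replicate 1 (x axis) and replicate 2 (y axis), in percent; the grey line marks equal shares. Points follow the line up to the window covered to 55.8% and 53.9%, and the point farthest from it is the window at 47.0% and 24.7%.

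Neighbouring windows were only loosely alike. The covered share of a window and that of the next had a Pearson's r of 0.205, and of the next but one 0.0188. On the reference arms 2L, 3L and 3R together these values were 0.302 and 0.130. The single arms differed, and 3R, at 0.215 and 0.0599, stood nearest to X.

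Coverage was highest in the first of 5 equal parts of X and lowest in the last. The first had covered shares of 17.1% and 15.0% in replicates 1 and 2. Its opening megabase had 14.5% and 13.8%, less than the megabase after it. The 3 middle parts lay between 9.94% and 12.9%. The last was covered to 8.10% in both replicates. By megabase, the highest shares were in the span from 1000001 to 2000000 (21.9% and 20.8%) and the one after it (20.4% and 20.0%). The lowest was from 21000001 to 22000000, with 1.47% and 1.41%. The last part was uneven, since its megabase from 19000001 to 20000000 was covered to 17.2% and 17.3%.

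The broadest and strongest domains came from the combined list, among its 378 X clusters with a counterpart in both replicates. The 10 longest and the 10 highest-scoring made 17 distinct regions, because 3 regions were in both sets. Together they spanned 0.517 Mb, or 2.31% of X. Replicate 1 covered between 77.3% and 100% of each region, and replicate 2 between 63.3% and 99.8%. The first 2.3 Mb, 10.3% of the chromosome, held 6 of the 17, and 0 lay beyond 20 Mb. Few X clusters lay there at all. The megabases from 20000001, 21000001 and 22000001 held 11, 7 and 8 in replicate 1, and 12, 7 and 10 in replicate 2. Of all 89 combined X clusters of 10 kb or more, 29.2% lay in the first of the 5 equal parts and 15.7% in the last. Clusters of any length were also most numerous in the first part, with 210 of 765 in replicate 1 and 207 of 824 in replicate 2. They were fewest in the last, with 110 and 133.

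The authors' score is used here mainly as a rank within its own list, and raw scores are compared between arms only within a list. Among X clusters seen in both replicates, the highest combined score belonged to X:1856076-1892056, 35981 bp long, with a score of 1.13 and rank 20 among all 7536 clusters. Replicate 1 split it into 3 clusters covering 97.5%, the best of them rank 3 of its whole list (score 1.27, 19380 bp). Replicate 2 had 2 clusters covering 98.4%, the best at rank 5 (score 1.18, 33572 bp). The strongest cluster of X in replicate 1 thus lay inside this domain, as did the longest one of replicate 2.

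The second was X:2175514-2203712 (28199 bp, combined rank 24). In replicate 1 it was 2 clusters with a best rank of 5, covering 99.2%, and in replicate 2 it was 1 cluster at rank 42, covering 99.8%. The domain between these, X:1974326-1986458 (12133 bp, combined rank 34), was a single cluster in both, at ranks 53 and 16. The stretch from 1856076 to 2203712 therefore held 3 of the 10 strongest regions.

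X:6746976-6762068 (15093 bp, combined rank 30) was also a single cluster in each replicate. Its rank was 4 in replicate 1 and 105 in replicate 2, so the replicates placed it differently. The opposite order was seen at X:10610530-10640258 (29729 bp, combined rank 32), with best ranks of 18 in replicate 1 and 4 in replicate 2. In replicate 2 its best cluster, 17086 bp long with a score of 1.21, was the strongest of X. X:12605578-12651192 (45615 bp, combined rank 44) held the longest X cluster of replicate 1, 41583 bp at rank 6. Replicate 2 resolved the same domain into 6 clusters, the longest 11822 bp, which covered 88.5%.

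4 more regions completed the 10 strongest. X:7224364-7236150 (11787 bp), X:5777532-5797836 (20305 bp), X:18534020-18542258 (8239 bp) and X:16226190-16230176 (3987 bp) held combined ranks 48, 49, 53 and 55. Each was a single cluster in both replicates. The last is the only one of the 17 under 8 kb, and it ranked 28 in replicate 1 and 98 in replicate 2. The first was followed by 169305 bp with no cluster of either replicate. Just outside the 10 strongest stood X:2540108-2558650 (18543 bp, combined rank 59). The first region too short for the 10 longest was X:2175514-2203712, already counted among the strongest.

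**Figure D3:**
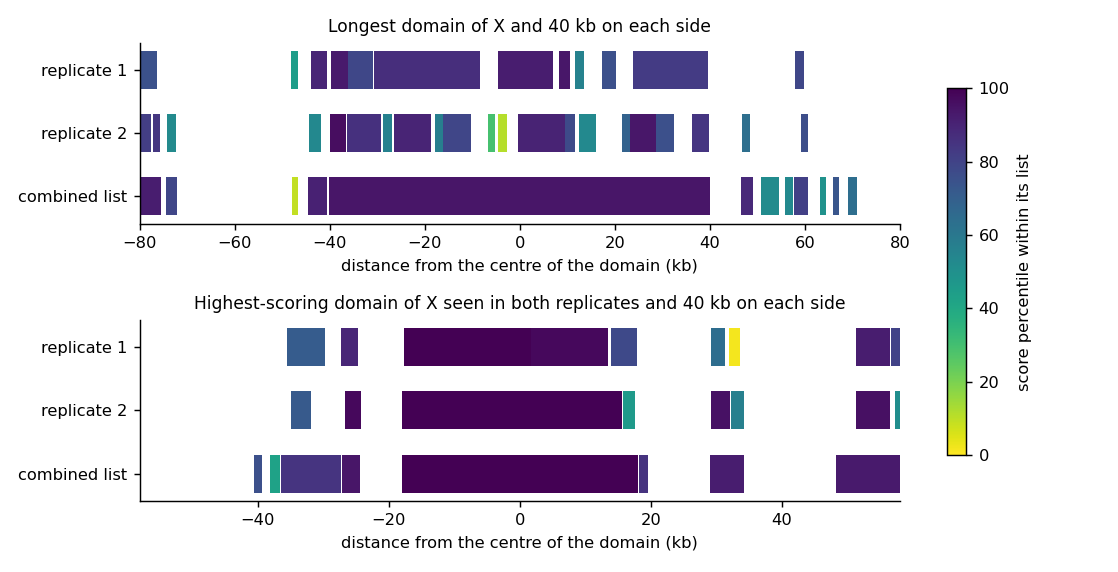
Clusters of replicate 1, replicate 2 and the combined list in and around the longest domain of X (top) and the highest-scoring one seen in both replicates (bottom), by distance from the domain's centre in kb; colour gives the score percentile within each list. The 80.1 kb combined domain on top is 8 clusters in replicate 1 and 15 in replicate 2, whereas the strongest is 3 and 2 clusters.

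The broadest regions varied in strength. Of the 10 longest, 3 were also among the 10 strongest, and X:12605578-12651192 was one of them. The longest, X:19251804-19331878 (80075 bp), ranked 435 by combined score. Its 8 clusters in replicate 1 reached rank 272 at best, and its 15 in replicate 2 reached rank 165. Its longest piece measured 22251 bp in replicate 1, against 9797 bp in replicate 2. The second longest, X:979604-1029030 (49427 bp, combined rank 630), was 9 clusters in each replicate, covering 81.2% and 63.3%. X:11387142-11429836 (42695 bp, combined rank 480) was 8 clusters in each, covering 77.3% and 72.4%. X:1139170-1180114 (40945 bp, combined rank 151) was 6 and 5 clusters, covering 90.5% and 81.9%. These 4 domains were chains of separate clusters in both replicates, joined in the combined list.

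The remaining long regions were X:579348-614578 (35231 bp), X:12097800-12127548 (29749 bp) and X:6869364-6897640 (28277 bp). The first held 6 and 5 clusters, the second 3 and 7, and the last 2 in each replicate. No cluster of either replicate lay in the 195144 bp before X:12097800-12127548, but the combined list had a cluster 815 bp before it. Over the 17 regions, replicate 2 had more pieces in 4, replicate 1 had more in 4, and the number was equal in 9. Genes at these positions are not named, since an annotation of release 5 was not used here.

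Long stretches without a listed cluster in either replicate made up most of X. Taking the replicates together, 102 stretches of 50 kb or more held no cluster of either, 12.5 Mb in all or 55.6% of the chromosome. On 2L, 3L and 3R such stretches took 56.0%, 47.9% and 52.6% of the arm, so X lay within the range of the reference arms. Of the 102, 48 were 100 kb or longer and 12 were 200 kb or longer. They took 38.6% and 14.0% of X. The reference arms together had 31.5% and 12.7%. At 100 kb X was above 2L, 3L and 3R taken singly (35.1%, 25.9% and 33.5%). At 200 kb 2L, with 15.9%, was above X.

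The longest was X:21247648-21845396, 597749 bp without a cluster in either replicate. Next were X:20396717-20657919 (261203 bp) and X:20659236-20913908 (254673 bp). They were parted by a single short cluster that replicate 1 listed and replicate 2 did not. X:14116959-14371444 (254486 bp) lay well inside the arm, and X:19857595-20106311 measured 248717 bp. The other 4 of these 5 began at 19857595 or later, toward the centromere end. Only the longest reached into the last 1 Mb of the sequence. The 8 stretches that began beyond 20 Mb summed to 1.95 Mb. Mappability of the repeats there was not measured, and a stretch with no listed cluster does not show absence of the mark.

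By windows, 41 of 225 (18.2%) held no cluster in either replicate, against 13.5% of the 757 windows of the reference arms. The reference arms ranged from 11.4% on 3L to 17.3% on 2L. The least covered windows could not be ranked further, because all 41 stood at 0. Beyond 20 Mb, 14 of 25 windows (56.0%) were empty, and in the first 20 Mb 27 of 200 (13.5%) were. The empty windows formed 31 runs. The longest run was 5 windows, X:21300001-21800000, and 7 runs were of 2 windows or more.

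The combined list placed short clusters inside many of these stretches. Of the 102, 83 held at least 1 combined cluster wholly inside, and 19 held none. The median was 2 and the highest number 8. These 226 combined clusters covered 2.62% of the stretches. In the longest stretch 3 combined clusters covered 0.549%, the best of them with a score of 0.447. When clusters of the combined list were counted as marked too, X had 86 unmarked stretches of 50 kb or more. Of the 41 empty windows, 22 were empty in all 3 lists.

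Median spacing was wider on X than on each reference arm. Between neighbouring X clusters the median gap measured 5889 bp in replicate 1, and 5223 bp was the value for replicate 2. On the reference arms it was 4135 and 4268.5 bp. The difference within each list was 1354 bp ± 565 (SD, n = 2), but 3R alone, at 5218 and 5108 bp, stood close to X. In replicate 1 gaps of 5 to 20 kb made up 27.2% of gaps on X and 21.5% on the reference arms. In replicate 2 they made up 26.1% and 22.4%. Gaps of 50 kb or more were 14.0% against 13.4% in replicate 1 and 13.0% against 12.5% in replicate 2. The first cluster of X began at 37816 in replicate 1 and 50179 in replicate 2. The last ended 6717 and 6911 bp before the end of the sequence.

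Clusters on X ranked higher in score than those elsewhere in the same list. Ranks are given as percentiles of the whole list, from near 0 for the weakest to near 100 for the strongest cluster. The median X cluster stood at percentile 70.1 in replicate 1 and 67.4 in replicate 2, a mean of 68.8 ± 1.86 (SD, n = 2). The reference arms stood at 44.8 and 45.2, with single arms between 44.0 and 47.0. The X median was above that of each reference arm in both replicates. The difference within a list was 23.8 percentile points ± 2.18 (SD, n = 2). With 2 replicates an exact paired permutation test cannot give p below 0.5, so no test was run.

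The shift was present from the weak to the strong end of the lists. Above the 90th percentile lay 126 of 765 X clusters in replicate 1 (16.5%) and 126 of 824 in replicate 2 (15.3%), where the whole list has 10.0% by definition in each replicate. On the reference arms 8.35% and 8.29% lay there. Below the 10th percentile lay 27 X clusters in replicate 1 (3.53%) and 25 in replicate 2 (3.03%), against 11.1% and 10.8% on the reference arms. In score units, X exceeded the reference arms by 0.0545 and 0.0650 at their 10th percentiles, and by 0.0657 and 0.0574 at their 90th, in replicates 1 and 2. The scale of the score is not stated, so these differences have no unit.

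**Figure D4:**
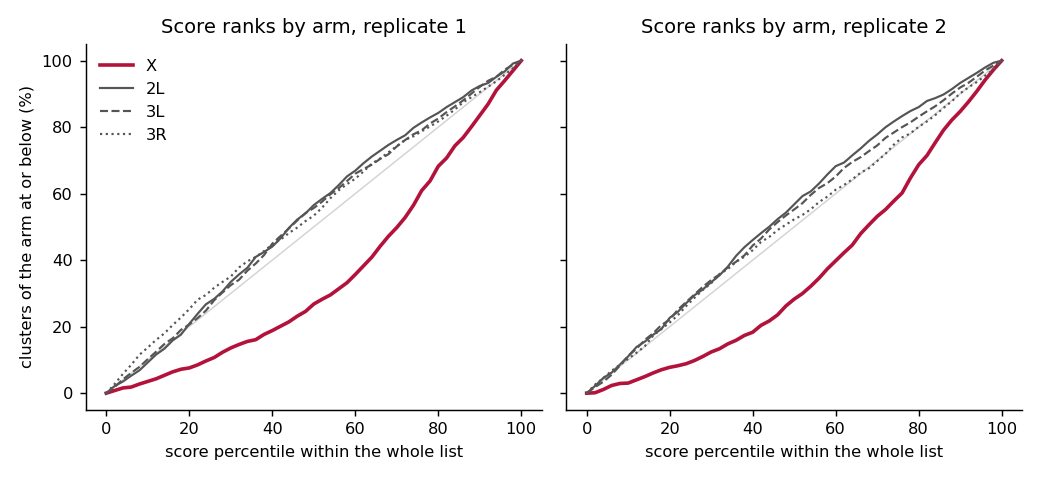
Cumulative share of the clusters of X (red) and of 2L, 3L and 3R (grey) at or below each score percentile of the whole list, for replicate 1 (left) and replicate 2 (right); the pale line is an even spread. The X curve lies below the others over nearly the whole range, with medians of 70.1 and 67.4 against 44.0 to 47.0.

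The higher ranks were spread over the whole chromosome. In replicate 1, all 21 megabases of X with at least 10 clusters had a median percentile above 60, from 61.6 to 82.9. Of 73 such megabases on the reference arms, 6 did. In replicate 2, 18 of 22 megabases of X and 2 of 74 on the reference arms had a median above 60. The lowest on X, 49.4, was the short last one, from 22000001, with 10 clusters. Medians of the 5 equal parts of X ranged from 68.7 to 71.8 in replicate 1 and from 65.2 to 70.9 in replicate 2. The covered share of these parts ran from 17.1% to 8.10% in replicate 1 and from 15.0% to 8.10% in replicate 2, whereas their ranks had no such order.

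The shift also held at equal length. Score and length ran together on X, at a Spearman's rho of 0.758 in replicate 1 (765 clusters) and 0.719 in replicate 2 (824 clusters). The reference arms had 0.760 and 0.738. X clusters under 2 kb had a median percentile of 47.4 in replicate 1 and 47.9 in replicate 2, where reference clusters of that length had 20.7 and 21.8. At 2 to 4 kb the values were 75.7 and 77.8 on X, and 52.1 and 56.3 on the reference arms. At 4 to 10 kb they were 88.0 and 88.9, against 78.1 and 80.1. At 10 kb or more they were 96.0 and 97.0, against 92.3 and 92.6.

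The lowest scores listed on X were higher too. They were 0.372 in replicate 1 and 0.288 in replicate 2, and on the reference arms together 0.238 and 0.225. Taken singly, 2L, 3L and 3R had 0.306, 0.309 and 0.238 in replicate 1, and 0.225, 0.238 and 0.230 in replicate 2. A lowest value tends to fall as clusters are added, and X had 765 and 824 against 2707 and 3029 on the reference arms. Among clusters of 2 to 4 kb the lowest X score was 0.572 and 0.513, against 0.351 and 0.398. There too X had fewer clusters, 246 and 258 against 870 and 991. The part that the authors' unstated calling threshold plays in the ranks of X was not tested.

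**Figure D5:**
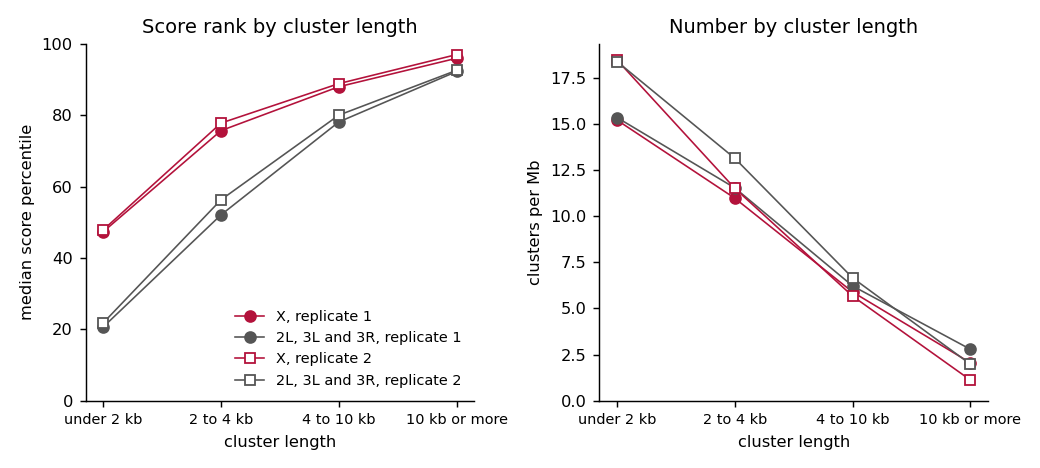
Median score percentile (left) and clusters per Mb (right) in 4 length classes, for X (red) and for 2L, 3L and 3R together (grey), replicate 1 filled circles and replicate 2 open squares. X lies above the reference arms in score in every class and below them in number from 2 kb up; under 2 kb the numbers are nearly equal.

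X was covered less than the reference arms, and fewer broad clusters went with this. The covered share of the reference arms was 14.7% in replicate 1 and 13.6% in replicate 2, and the ratio of X to it was 0.826 and 0.807 (0.817 ± 0.0133, SD, n = 2). X was the lowest of the 4 arms in both replicates, followed by 3R in replicate 1 (13.6%) and by 2L in replicate 2 (12.7%). As a product, this ratio splits into cluster number per Mb and mean cluster length. X had 34.1 and 36.7 clusters per Mb, and the reference arms 35.9 and 40.1, a ratio of 0.933 ± 0.0251 (SD, n = 2). In replicate 1, however, 3R had fewer than X, 32.9 per Mb. Mean lengths were 3552 and 2995 bp on X, and 4090 and 3396 bp on the reference arms, a ratio of 0.875 ± 0.00931 (SD, n = 2). Median lengths of all clusters differed by -52.0 bp ± 21.2 (X minus reference, SD, n = 2).

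The length difference sat in the broad classes. Clusters of 10 kb or more numbered 46 on X in replicate 1 and 25 in replicate 2, or 2.05 and 1.11 per Mb, against 2.78 and 1.97 per Mb on the reference arms. They held 27.3% of the covered bases of X in replicate 1 and 15.4% in replicate 2, where the reference arms had 36.0% and 22.7%. Clusters under 2 kb were as dense on X, 15.2 and 18.5 per Mb, as on the reference arms, 15.3 and 18.4 per Mb. The most marked windows were also lower. On X 6 windows were covered above 40% in both replicates, and on the reference arms 54 of 757 were. The fullest window of X had 54.8% as the mean of both replicates, and those of 2L, 3L and 3R had 85.4%, 92.4% and 84.4%.

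Number and length of clusters depended on the score limit. When clusters below the median score of the whole list were left out, X had 1.50 times the density of the reference arms, in place of 0.933 times, the covered ratio was 0.985 and the median length difference -1406.5 bp. Above that median lay 73.2% and 71.7% of X clusters, and 44.8% and 45.3% of reference clusters. With the limit set at the median of each arm instead, an alternative chosen after seeing the ranks, the density ratio was 0.932, the covered ratio 0.789 and the median length difference -361 bp.

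At the loosest definition of overlap the replicates shared most X clusters, and at a stricter one they did not. In replicate 1, 516 of 765 X clusters (67.5%, 95% exact Clopper-Pearson interval 64.0 to 70.8) had at least 1 bp in common with a cluster of replicate 2. In the whole list 71.0% did. In replicate 2, 593 of 824 X clusters (72.0%, 68.8 to 75.0) met one of replicate 1, and 73.2% of the whole list did. Both shares of X are near those of their lists, and the intervals cover counting error only. When the overlap had to reach 50% of both clusters, 45.5% of X clusters were shared in replicate 1 and 42.2% in replicate 2. This stricter share was taken for X alone. Whether it differs from that of the whole list or the reference arms is therefore not known. The bases listed in both replicates came to 1.81 Mb. That is 66.7% of what replicate 1 covered on X and 73.5% of what replicate 2 covered. Their Jaccard index, the shared part of all bases covered in either, was 53.8% on X, and 55.5%, 57.8% and 61.0% on 2L, 3L and 3R.

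Long X clusters were shared almost without exception and short ones were not. All 46 and all 25 X clusters of 10 kb or more had a counterpart, as did 96.2% and 100% of those of 4 to 10 kb. At 2 to 4 kb the shares were 79.3% and 88.8%. Clusters of the reference arms behaved much the same. At 10 kb or more 100% of them were shared in both replicates, and at 4 to 10 kb 96.6% and 99.2%. Their shares at 2 to 4 kb were 77.8% and 84.8%. Under 2 kb the shares on X were 43.4% (38.1 to 48.8) in replicate 1 and 51.2% (46.3 to 56.1) in replicate 2. Reference clusters under 2 kb had 50.0% (47.1 to 52.9) and 55.2% (52.5 to 57.8). In this shortest class X was lower in both replicates, and this difference was not tested.

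Unshared X clusters ranked below shared ones, and both kinds ranked above the same kind on the reference arms. Shared X clusters had median percentiles of 76.2 and 75.5 in replicates 1 and 2, against 54.4 and 54.3 on the reference arms. The 249 X clusters of replicate 1 without a counterpart had a median percentile of 57.1, and the 231 of replicate 2 had 51.0. On the reference arms unshared clusters stood at 29.1 and 27.6. Of the unshared X clusters, 59.8% and 50.2% scored above the median of their list, against 22.2% and 20.8% on the reference arms. They were short, with median lengths of 1592 and 1560 bp, where shared X clusters had 2765 and 2376 bp.

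Of the highest-scoring unshared clusters, 4 lay close together. In replicate 1 they were X:9994657-9996628 (score 0.977, rank 86), X:11636221-11637995 (0.944, rank 110) and X:11491227-11493001 (0.929, rank 124). In replicate 2 they were X:11483469-11484969 (0.928, rank 84), X:18903945-18905991 (0.787, rank 320) and X:11628537-11629869 (0.774, rank 375). The 6 are 1333 to 2047 bp long, and each overlapped 1 combined cluster. From those of replicate 1, the nearest cluster of replicate 2 lay 797, 6351 and 3701 bp away. From those of replicate 2, the nearest of replicate 1 lay 6257, 748 and 6351 bp away. The cluster of replicate 1 at 11491227 began 6257 bp after the end of the one of replicate 2 at 11483469. Likewise 6351 bp separated the one of replicate 2 at 11628537 from that of replicate 1 at 11636221. In each replicate 2 of the 3 thus lay between 11483469 and 11637995, but at different places.

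The combined list covered 21.6% of X, more than either replicate, and 24.7% of the reference arms. Its median X cluster stood at percentile 69.4 of the list and the median reference cluster at 44.6. Of its 1320 X clusters, 378 (28.6%) overlapped both replicates, 178 replicate 1 alone, 178 replicate 2 alone and 586 (44.4%) neither. On the reference arms 30.1% overlapped both and 44.6% neither. The 586 had a median length of 1334 bp and a median percentile of 59.8, where their reference counterparts stood at 30.4.

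The 2 highest scores of X in the combined list belonged to regions that neither replicate listed. X:3387150-3388150 scored 2.49 (rank 8) and X:15907242-15908242 scored 1.83 (rank 12). Each is 1001 bp long, the shortest length in that list, which 25 X clusters share. The nearest cluster of either replicate was 18473 bp and 65883 bp away. All 12 top scores of the combined list were in neither replicate. The strongest combined cluster of X that both replicates listed, at rank 20, scored 1.13.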

How the data were processed

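Clusters were the enriched regions of 2 ChIP libraries and of their combined list, in whole embryos. Bowtie 0.12.7, a short-read aligner, is listed in the submitters' processing notes. Caller, threshold, read filters and the way the combined list was made were not given in the sources used here. Positions refer to FlyBase release 5, per the file headers. Each region carries a score that the authors deposited, with no stated scale. It was ranked within its own list, and raw scores were compared between arms only within a list. The 2 input libraries were not analysed on their own, and no read depth was at hand.

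Rows named X were kept, 2L, 3L and 3R serving as reference. A single base (1 bp) in common made a pair of clusters shared. X was divided into windows of 100 kb from its first base. Clusters were assigned to windows and megabases by their midpoint. Unmarked stretches were those of at least 50 kb outside the clusters of both replicates. Python 3.11.15, numpy 2.4.6, scipy 1.17.1, pandas 2.3.3 and matplotlib 3.10.9 were used, and the interval functions were tested on simulated lists. Values are given per replicate with mean and SD, with no test. The rule named, on X, the 10 highest-scoring and the 10 longest combined clusters seen in both replicates, the 5 most and least covered windows and the 5 longest unmarked stretches. It also named the 3 strongest unshared clusters and the 3 longest clusters of each replicate. The members and this rule were chosen with earlier results of these data known. The gene table at hand is of release 6, so no gene was placed and no coordinates were converted. Alternatives were score limits, merging within 1 kb, leaving out the 1 Mb at the centromere end, length classes, reciprocal overlap of 50%, other windows and stretches, and leaving out each replicate.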

Additional observations from a re-analysis of the deposited data

How the results depend on the processing

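Of 53 alternative values for 12 results, 31 were called the same, 21 were called moved and 1 changed direction. The same meant within the replicate spread, or within 1.5 times for counts. The Jaccard index and the window correlation are single values over both replicates, so they have no such spread to be judged by. The 14 values that leave out a replicate are among the 31 but must lie within 1 SD of a mean of 2, so they say nothing about stability. Restricting to scores at or above the list median turned the density ratio of X to the reference arms from 0.933 to 1.50. It also gave a covered share of 9.97%, 25.7 clusters per Mb, a covered ratio of 0.985, a median length difference of -1406.5 bp, a median gap of 7674 bp, a Jaccard index of 53.1% and a window correlation of 0.940. With the median of the same arm as limit, chosen after seeing the data, these were a covered share of 8.37%, a covered ratio of 0.789 and a length difference of -361 bp. Merging clusters within 1 kb gave 27.4 clusters per Mb, a density ratio of 0.964, a length difference of -85.0 bp, a median gap of 9736 bp and a Jaccard index of 55.3%. Without the 1 Mb at the centromere end the covered ratio was 0.835 and the Jaccard index 53.9%. The median percentile of X clusters was 61.8 under 4 kb and 90.8 from 4 kb up, above the reference arms in both (33.7 and 35.6, then 83.2 and 83.9, in replicates 1 and 2). With reciprocal overlap of 50%, 43.9% of X clusters were shared, a value taken for X alone. In addition, 48 unmarked stretches reached 100 kb (86 of 50 kb or more with the combined list added). These shifts follow in part from fewer or longer clusters; other causes were not tested. No paired analysis was possible because the groups with shared replicate numbers are ChIP and input, and no region list of an input was used. Differences between X and the reference arms were taken within each list. Unknown read depth limits every statement about regions that were not listed.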
